A study of Mus musculus with 8 samples.

Results

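Ion channel and gap junction genes were examined in a comparison of liver macrophages from C57BL/6 mice fed a western diet (WD, 4 libraries) or a normal diet (ND, 4 libraries). C57BL/6 is a common inbred strain, and no other allele, agent, age or diet composition is given in the sources used here. The data are 1 table of the authors' own comparison, with no value for any single library, so depth per library is unknown and each ± value below is a standard error (SE) as the authors computed it. The table writes its groups WDV and NDV, with the V unexplained, and these were read as the WD and the ND group. The members are all genes of the table whose symbol begins with the family prefixes of potassium, sodium, voltage-gated calcium, TRP, chloride, anoctamin, Clic, ryanodine, inositol trisphosphate receptor, Piezo and P2X channels or of the connexin families Gja, Gjb and Gjc. There were 22 such genes among the 2386 in the authors' deposited table. That table holds only genes with a p-value below 0.05 and a log2 fold change above 1 in size, so each member had already been selected for a difference between diets.

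Ion channels are membrane proteins that let ions cross when voltage, a ligand, stretch or an intracellular messenger opens them. Potassium channels set the resting potential, which in cells that lack action potentials governs the drive for calcium entry, and TRP, Piezo and P2X channels admit calcium and sodium directly. Connexins assemble into hexameric hemichannels that dock between neighbouring cells as gap junctions, through which ions and small messengers pass. In the liver sinusoid, endothelial cells, stellate cells, hepatocytes and macrophages lie side by side and use different members of these families.

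Most of the members were lower under western diet. Calls rest on the adjusted p-values of the authors' deposited table, with a limit of 0.05. These are Benjamini-Hochberg values over all genes to which the authors gave an adjusted p, called the tested genes below. Of the 22 members 14 fell, 3 rose and 5 were listed without passing. The same limit called 61.4% of all listed genes lower and 22.0% higher, 83.4% in all, against 63.6% and 13.6% of the members. The share of members called lower was thus near the background of the authors' deposited table. Listed fold changes, called or not, were negative for 17 of the 22 members and for 70.4% of all genes of the authors' deposited table. The 14 lower members had a median log2 fold change of -2.64, beside a median of -2.10 for all 1464 lower genes of the authors' deposited table. For the 3 higher members the median was 1.52, beside 1.34 for all 526 higher genes of the authors' deposited table. Fewer cells of a type and less RNA per cell cannot be told apart in such bulk libraries.

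Markers of other cells moved in the same comparison. All 10 markers listed for sinusoidal endothelium fell, with a median log2 fold change of -3.15 in the authors' deposited table. The list includes general endothelial genes such as Pecam1 and Cdh5, so these values are not specific to sinusoidal cells. Summed over the list, the approximate level (derived as explained for the connexins) went from 56596 to 8344 normalized counts. Of 10 stellate cell and fibroblast markers 7 fell, with a median of -1.68 and a summed level from 4747 to 1328 by the authors' deposited table. Of 4 monocyte markers 3 rose, as did 3 of 8 T and NK cell markers and 4 of 5 mast cell markers, whereas the mast cell marker Kit fell, in the authors' deposited table. Of 6 larger-vessel endothelial markers 4 fell, Gja5 being one of them, with a median of -3.06 in the authors' deposited table. There 2 of 4 B cell and 3 of 5 dendritic cell markers rose, and the dendritic cell marker Zbtb46 fell. No marker of neurons and glia, cholangiocytes, neutrophils or smooth muscle was listed. None of 10 Kupffer cell and macrophage markers, among them Adgre1, Clec4f and Csf1r, was in the table, so the label could not be checked against them. The part of these other cells in the values below was not tested.

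**Figure D1:**
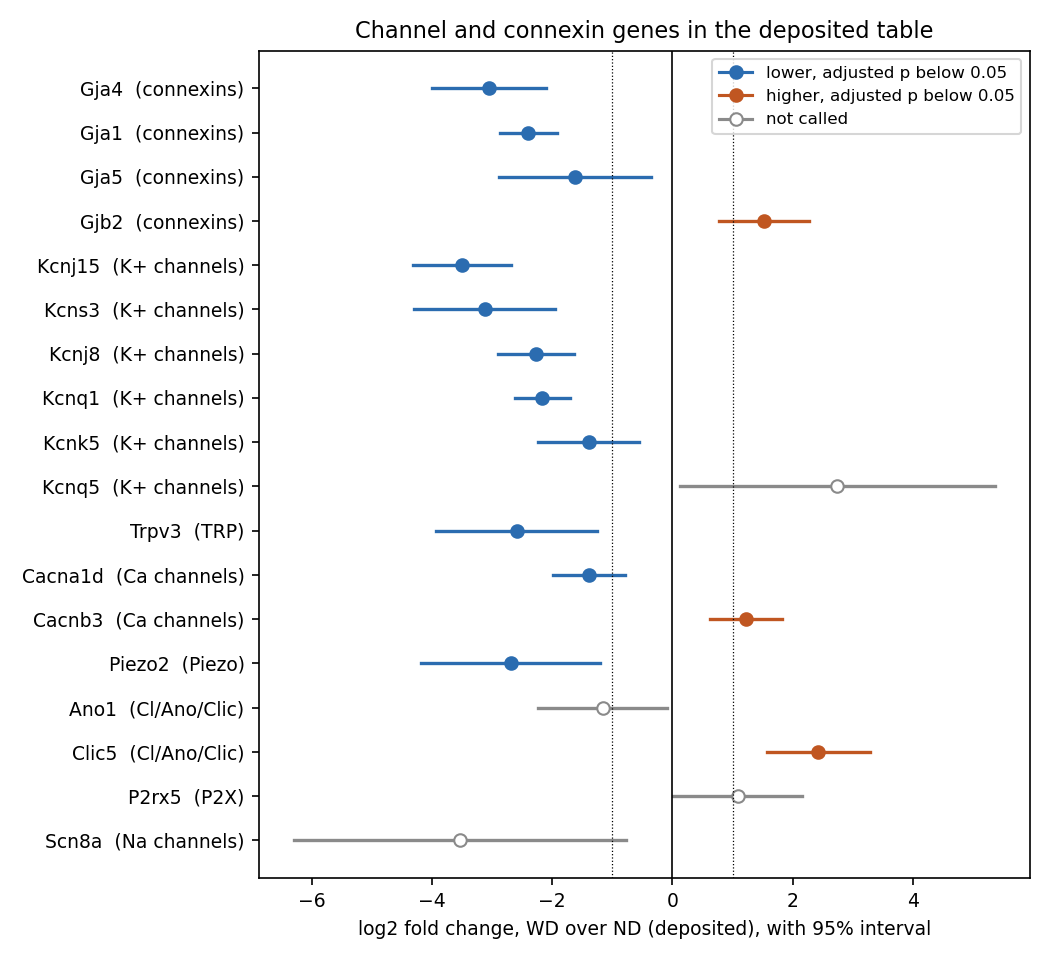
Log2 fold change of WD over ND for 18 of the 22 members (x axis), 1 row per gene grouped by class, with points for the deposited estimate and bars for its 95% interval from the SE. Dotted lines mark a 2-fold change; filled points passed an adjusted p below 0.05, 11 of them to the left of 0 and 3 to the right, and 4 open points did not pass.

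Connexins were the class with the largest share of its annotated genes in the table among classes of more than 2 genes. Of 16 coding genes with these prefixes in the GENCODE annotation, 5 were listed, and 4 fell and 1 rose in the authors' deposited table. Over all classes, 22 of 218 annotated coding genes with the prefixes were listed, and 14, or 6.42% of the 218, fell, beside 8.35% of the 17531 tested genes. The 218 were taken by symbol prefix and include some genes that are not channels or connexins. The number 17531 was recovered from the adjusted p-values of the deposited table. It leaves out genes given a p-value but no adjusted p, of which 77 were listed. The 6.42% counts every annotated gene, including any that was not tested, so the percentages have different denominators. An unlisted gene need not be unchanged, since it may have been unmeasured or have missed the p or the fold limit.

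Gja1, the most widely expressed connexin gene (ENSMUSG00000050953, mm10 chromosome 10, 56377330 to 56402513), had the smallest p of all members, at rank 329 of the 17531 tested genes. Its mean normalized count in the authors' deposited table was 1413, with a log2 fold change of -2.40 ± 0.24 (SE, 4 libraries against 4) and an adjusted p of 1.44e-21. This is a 5.26-fold fall with a 95% interval from 3.79-fold to 7.30-fold, computed from the authors' deposited table. If the mean count averages equal groups and the fold change separates them, it corresponds to about 2375 normalized counts in ND and 451 in WD. Approximate levels below were derived in the same way from the authors' deposited table and carry no error of their own.

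Gja4, a connexin gene of vascular endothelium (ENSMUSG00000050234, chromosome 4, 127311421 to 127314039), fell more steeply than Gja1 in its estimate but with a wider error. The authors' deposited table gives it a mean count of 643 and a log2 fold change of -3.05 ± 0.49 (adjusted p 6.07e-09). Its approximate level went from 1147 to 138 normalized counts by the authors' deposited table. The 95% interval of its 8.29-fold fall, 4.28-fold to 16.1-fold, overlapped that of Gja1 in the authors' deposited table. Gja5, the connexin gene typical of arterial endothelium, was far scarcer, at a mean count of 8.85 in the authors' deposited table. Its log2 fold change was -1.63 ± 0.64 with an adjusted p of 0.0413, the member nearest to the limit on the called side of the authors' deposited table. Its annotated span on chromosome 3 (96904693 to 97077416) contains other annotated genes on the opposite strand, and whether the counting used strand is not given in the sources used here.

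Gjb2, a connexin gene that hepatocytes share with the inner ear and epithelia (ENSMUSG00000046352, chromosome 14, 57098600 to 57104702), was the 1 connexin to rise. In the authors' deposited table its mean count was 19.95 and its log2 fold change 1.52 ± 0.38, with an adjusted p of 0.000524. Its approximate level went from 10.3 normalized counts in ND to 29.6 in WD by the authors' deposited table. Gjb1, the other main connexin gene of hepatocytes, was not listed. Of 6 hepatocyte markers, Cyp3a11 rose by 3.91 ± 0.71 in the authors' deposited table, Cyp2e1 stood at 1.69 ± 0.79 without passing and the other 4 were outside it. Their part in the value of Gjb2 was not tested. Among terms that the authors tested on their higher genes, Gjb2 was in 6, of which response to lipopolysaccharide (20 genes, Benjamini p 2.57e-10) and aging (11 genes, Benjamini p 0.00398) passed 0.05 in the authors' deposited table.

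Levels of different connexins can be compared only per length, here per kb of annotated exon. The length merges the exons of all annotated transcripts, 10257 bases for Gja1 and 1685 for Gja4, so the order of these genes depends on the length used. On this scale the approximate levels in ND, derived from the authors' deposited table, were 681 normalized counts per kb for Gja4 and 232 for Gja1. Gjb2 and Gja5 were far below, at 4.28 per kb for Gjb2 and 2.33 for Gja5 in ND by the authors' deposited table. In WD the levels per kb were 82.1 for Gja4, 44.0 for Gja1, 12.3 for Gjb2 and 0.753 for Gja5 by the authors' deposited table. Gja4 and Gja1 were thus the most abundant listed connexins in both diets, and Gjb2 stood closer to them in WD than in ND.

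**Figure D2:**
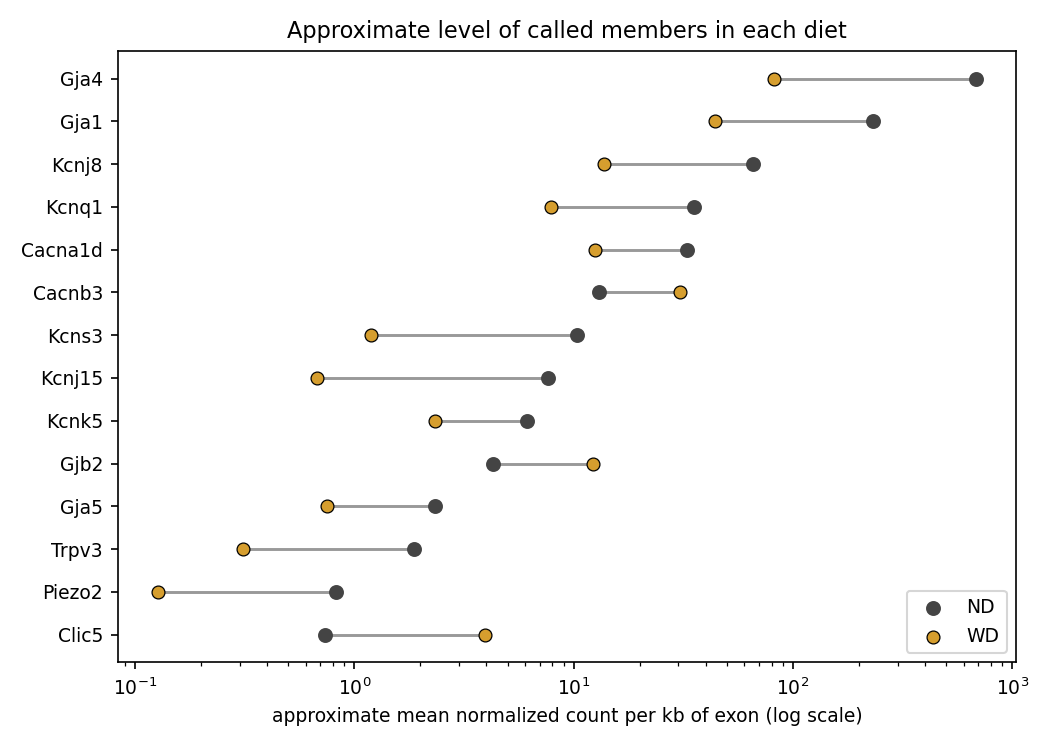
Approximate mean normalized count per kb of annotated exon (x axis, log scale) in ND (dark points) and WD (yellow points) for 14 of the 17 called members, derived from the deposited mean count and fold change. Gja4 goes from 681 to 82.1 per kb and Gja1 from 232 to 44.0, while Clic5, Gjb2 and Cacnb3 run the other way; no error is drawn because values per library were not analysed here.

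The windows upstream of 4 connexin genes are shown because Gja1, Gja4 and Gja5 fell while Gjb2 rose. Each is the 250 bases before the annotated start, from RefSeq on build GRCm38.p6, on the strand of the gene. Capitals mark exact matches, on either strand, to short motifs of factor families active in endothelium: AGGAAG for the ETS family, ACAAT for the SOX family, GATAA for the GATA family and CACCC for the KLF family, each searched also as its reverse complement. Matches may adjoin or overlap and were each counted.
Gja1, chr10:56377050-56377299, plus strand: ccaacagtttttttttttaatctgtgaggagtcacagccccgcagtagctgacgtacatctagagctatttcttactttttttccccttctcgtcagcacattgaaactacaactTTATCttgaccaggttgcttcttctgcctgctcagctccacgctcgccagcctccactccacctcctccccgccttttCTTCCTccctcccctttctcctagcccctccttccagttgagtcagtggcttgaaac
Gja4, chr4:127314040-127314289, minus strand: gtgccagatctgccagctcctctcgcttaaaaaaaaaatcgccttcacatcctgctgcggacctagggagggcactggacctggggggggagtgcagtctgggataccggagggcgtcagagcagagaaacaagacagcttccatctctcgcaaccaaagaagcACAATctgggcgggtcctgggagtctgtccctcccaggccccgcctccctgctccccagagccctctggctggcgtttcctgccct
Gja5, chr3:97032152-97032401, plus strand: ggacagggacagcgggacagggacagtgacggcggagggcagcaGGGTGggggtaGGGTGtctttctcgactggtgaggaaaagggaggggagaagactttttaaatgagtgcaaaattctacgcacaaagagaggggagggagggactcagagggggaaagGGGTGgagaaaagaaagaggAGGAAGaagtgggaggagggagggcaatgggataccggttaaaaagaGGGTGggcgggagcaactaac
Gjb2, chr14:57104703-57104952, minus strand: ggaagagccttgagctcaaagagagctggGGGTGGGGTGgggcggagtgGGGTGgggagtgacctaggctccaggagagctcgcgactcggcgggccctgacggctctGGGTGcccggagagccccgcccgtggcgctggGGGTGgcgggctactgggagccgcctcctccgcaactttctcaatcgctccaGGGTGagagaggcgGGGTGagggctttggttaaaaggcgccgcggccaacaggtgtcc
Gja1 holds 1 ETS and 1 GATA match, Gja4 holds 1 SOX match, Gja5 holds 1 ETS and 4 KLF matches, and Gjb2 holds 7 KLF matches and no other. Windows were found for 9 of the 14 lower members, 11 windows in all, since some genes have several starts. The ETS letters occurred in 18.2% of these windows against 29.5% of 32851 promoters, the SOX letters in 27.3% against 27.7%, the GATA letters in 18.2% against 22.6% and the KLF letters in 54.5% against 52%. No motif was thus more than a few percentage points more frequent in the member windows than in all promoters, and a match of letters is no evidence of binding.

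Potassium channel genes were the largest class, and every called one was lower. Of 94 annotated coding genes whose symbol begins with Kcn, 7 were in the authors' deposited table, of which 6 fell and 1, Kcnq5, did not pass. The 6 are 6.38% of the annotated genes of the class, beside 8.35% of all tested genes called lower, although not every annotated gene need have been tested. Described here are the silent subunit Kcns3, Kcnq1, the inward rectifiers Kcnj8 and Kcnj15, and the tandem-pore leak channel Kcnk5. No gene of the Kcna, Kcnn, Kcne or Kcnmb subfamilies was listed.

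Kcns3 encodes a silent subunit, which forms no channel alone and modifies the delayed rectifiers with which it assembles (ENSMUSG00000043673, chromosome 12, 11090202 to 11151056). Its log2 fold change was -3.12 ± 0.60 at a mean count of 18.3 by the authors' deposited table, with an adjusted p of 2.27e-06. This is an 8.72-fold fall (95% interval 3.86-fold to 19.7-fold), from about 32.7 to 3.76 normalized counts by the authors' deposited table.

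Kcnj8, the pore subunit of the vascular ATP-sensitive potassium channel (ENSMUSG00000030247, chromosome 6, 142564837 to 142571614), fell together with the gene of its regulatory subunit. The log2 fold change of Kcnj8 was -2.27 ± 0.32 at a mean count of 102 in the authors' deposited table (adjusted p 4.92e-11), from about 168 to 35.0 normalized counts. Abcc9, which encodes the sulfonylurea receptor of this channel and lies 16.2 kb away (142587862 to 142702315), fell by 1.97 ± 0.53 on the log2 scale at a mean count of 287 in the authors' deposited table (adjusted p 0.00130). Abcc9 lies outside the family prefixes and was chosen after its value was seen. Pericytes, stellate cells and smooth muscle are known to use this channel pair, and the stellate cell marker Rgs5 was lower too, at -1.68 ± 0.56 by the authors' deposited table. None of the 4 smooth muscle markers, Acta2 among them, was listed.

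Kcnq1, a slow delayed-rectifier gene of heart and epithelia (ENSMUSG00000009545, chromosome 7, 143106362 to 143427042), had the smallest SE of all members. It fell by 2.16 ± 0.23 on the log2 scale at a mean count of 88.2 in the authors' deposited table (adjusted p 3.00e-19). Of 8 other coding genes within 100 kb of it, 1 was listed, Cdkn1c, with a log2 fold change of -2.34 in the authors' deposited table. Kcnq1 lies in an imprinted domain and is overlapped by the antisense transcript Kcnq1ot1, which was not listed. Kcnq5, a member of the same subfamily that carries neuronal M-current, stood at 2.74 ± 1.34 with a mean count of 2.06 and an adjusted p of 0.113 in the authors' deposited table. Its interval (0.12 to 5.36) and that of Kcnq1 (-2.62 to -1.71) did not overlap in the authors' deposited table, but Kcnq5 did not pass and the difference between these genes was not tested.

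Kcnj15, an inward rectifier of epithelia (ENSMUSG00000062609, chromosome 16, 95257558 to 95300260), had the largest fall among potassium channels. In the authors' deposited table its log2 fold change was -3.49 ± 0.41 with an adjusted p of 1.24e-15, and 9.08% of all called lower genes had a larger fall. Its mean count of 26.2 corresponds to about 48.1 normalized counts in ND and 4.27 in WD by the authors' deposited table. Kcnk5, an acid-sensitive leak channel, fell the least of the class, with a log2 fold change of -1.39 ± 0.43 at a mean count of 14.4 in the authors' deposited table (adjusted p 0.00601). The 95% intervals of Kcnj15 (-4.31 to -2.68) and Kcnk5 (-2.23 to -0.55) did not overlap in the authors' deposited table. These genes were picked as the ends of the range after their values were seen, and the difference between them was not tested.

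**Figure D3:**
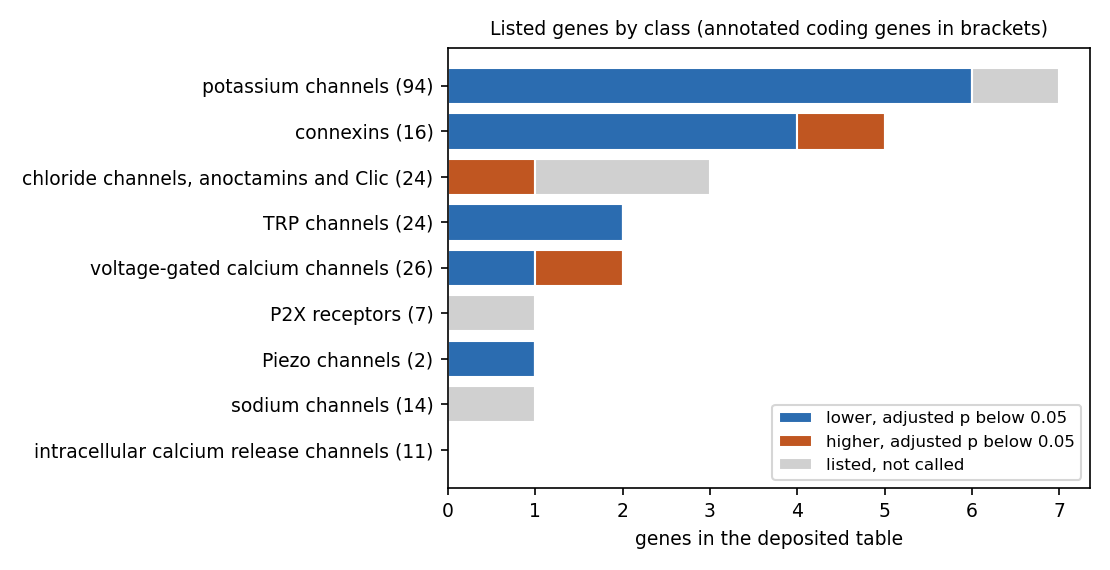
Number of genes in the deposited table (x axis) for each class of channel or connexin (rows). Brackets give the number of annotated coding genes with the symbol prefixes of the class, which include some genes that are not channels. Blue marks genes that fell, orange genes that rose and grey those that did not pass; potassium channels have 6 lower genes and connexins 4 lower and 1 higher, and intracellular calcium release channels have no bar because none was listed.

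Genes of calcium-permeable channels were divided in direction. Of 24 annotated symbols with the TRP prefixes 2 were listed, and both fell in the authors' deposited table. The 2 are 8.33% of the annotated symbols, near the 8.35% of all tested genes called lower. Trpv3, a warmth-sensitive channel known from keratinocytes, fell by 2.59 ± 0.68 at a mean count of 6.39 in the authors' deposited table (adjusted p 0.00105). Trpv2 and Trpm2, which macrophages use, and Trpv4 of endothelium were not listed. Piezo2, a stretch-activated channel of sensory neurons, fell by 2.69 ± 0.76 at a mean count of 8.15 in the authors' deposited table (adjusted p 0.00246), and its paralog Piezo1 was not listed.

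The voltage-gated calcium channel genes Cacna1d and Cacnb3 moved in opposite directions. Cacna1d encodes an L-type pore subunit (ENSMUSG00000015968, chromosome 14, 30039939 to 30491455) and fell by 1.39 ± 0.31 on the log2 scale at a mean count of 286 in the authors' deposited table (adjusted p 5.72e-05). Its annotated span is overlapped by the coding genes Chdh and Dcp1a on the opposite strand, and as for Gja5 it is not known whether counting used strand. Cacnb3 encodes an auxiliary beta subunit (ENSMUSG00000003352, chromosome 15, 98630840 to 98644529) and rose by 1.22 ± 0.31 at a mean count of 87.2 in the authors' deposited table (adjusted p 0.000561). Their approximate levels went from 413 to 158 and from 52.3 to 122 normalized counts by the authors' deposited table. Per kb of exon, Cacna1d was above Cacnb3 in ND (32.8 against 13.0) and below it in WD (12.5 against 30.4) by the authors' deposited table. This order depends on the merged exon lengths used, 12621 bases for Cacna1d and 4010 for Cacnb3. Cacnb3 was in 7 of the terms that the authors tested on their higher genes. Only T cell receptor signalling (14 genes, Benjamini p 1.38e-08) passed the limit used for the terms of Gjb2 in the authors' deposited table. The others did not pass, among them calcium ion transport (5 genes, Benjamini p 0.601). The T and NK cell markers Ncr1, Nkg7 and Cd8a rose, with log2 fold changes of 1.34, 1.20 and 1.73 from the authors' deposited table. The other 5 of the 8 markers, among them Cd3e, Cd3d and Cd4, were not listed. The part of T and NK cells in the value of Cacnb3 was not tested. No gene of the ryanodine or inositol trisphosphate receptor families, which release calcium from the endoplasmic reticulum, was listed.

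Clic5 had the largest rise of the called members. It encodes a chloride intracellular channel protein that associates with the actin cortex (ENSMUSG00000023959, chromosome 17, 44188584 to 44280172). The authors' deposited table gives a mean count of 20.5 and a log2 fold change of 2.42 ± 0.44 (adjusted p 4.21e-07). This is a 5.37-fold rise with a 95% interval from 2.96-fold to 9.72-fold, from about 6.44 to 34.5 normalized counts by the authors' deposited table. Of the called higher genes in the authors' deposited table, 8.17% had a larger rise. Clic5 is also known from podocytes, lung and inner ear, and which cell of this preparation carried it was not tested. Clic1, an abundant family member in macrophages, was not listed.

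The other members described here did not pass. Ano1, a calcium-activated chloride channel gene of epithelia and pacemaker cells, stood at -1.16 ± 0.55 with a mean count of 18.3 in the authors' deposited table (adjusted p 0.0968), just outside the limit. P2rx5, an ATP-gated channel gene, stood at 1.08 ± 0.55 with a mean count of 9.79 in the authors' deposited table (adjusted p 0.128). P2rx4 and P2rx7, the ATP-gated channel genes best known in macrophages, were not listed. Scn8a, a neuronal sodium channel gene, had a mean count of 1.62 and no adjusted p in the authors' deposited table, with a log2 fold change of -3.53 ± 1.41.

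**Figure D4:**
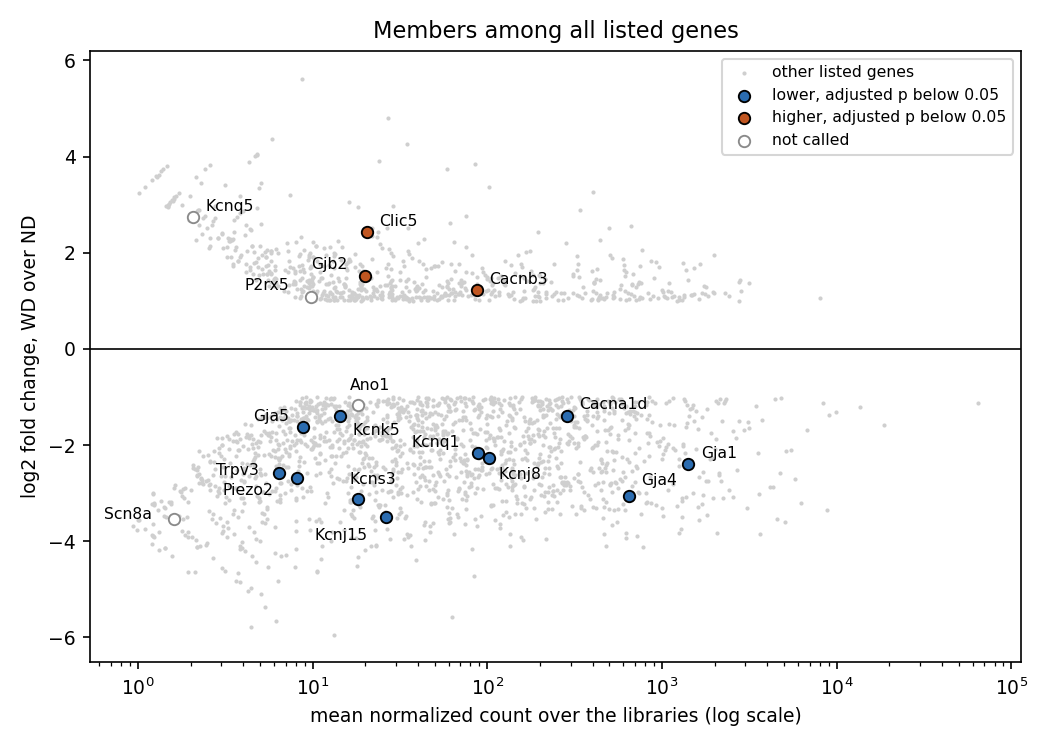
Mean normalized count (x axis, log scale) against log2 fold change of WD over ND (y axis) for all 2386 listed genes, with 18 of the 22 members labelled. The band around 0 is empty because the table holds no change under 2-fold; Gja1 (mean count 1413) and Gja4 (643) are the most abundant of the labelled genes.

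Members were scarcer than listed genes in general. Their median mean count was 19.1, beside 37.5 over all listed genes of the authors' deposited table, and 8 of the 22 stood below 10. Of those 8, the 4 that were called included Trpv3, Piezo2 and Gja5, and the smallest SE among them was 0.64, against 0.24 for Gja1, in the authors' deposited table. The falls of these scarce genes are therefore known with less precision than that of Gja1. The 95% interval lay wholly beyond 2-fold for 11 of the 14 lower members, all but Cacna1d, Kcnk5 and Gja5, and for Clic5 alone among the 3 higher ones. Such an interval was found for 78.6% of the called lower members, against 64.8% of all 1464 called lower genes of the authors' deposited table. As shares of listed genes, called lower with such an interval were 50% of the 22 members against 39.8% of the authors' deposited table, and called higher 4.55% against 4.78%.

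Related genes outside the family prefixes were examined in 6 lists. Of their 173 genes 15, or 8.67%, were called lower and none higher in the authors' deposited table, a share of lower calls close to the 8.35% among all tested genes. The members named below are therefore given as values. Of 44 other channel genes, which include aquaporins, pannexins and volume-regulated channels, 5 were called lower and 0 higher by the authors' deposited table. Aqp1, the water channel gene of endothelium, fell by 3.35 ± 0.37 at a mean count of 8782 in the authors' deposited table. In that list Pkd2, a polycystin cation channel gene, stood at -1.37 ± 0.13 in the authors' deposited table. Lrrc8a, the essential subunit of the volume-regulated anion channel, stood at -1.51 ± 0.17, the pacemaker channel gene Hcn4 at -3.02 ± 0.78 and Cngb1 at -2.07 ± 0.68 in the authors' deposited table. No pannexin was listed.

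Of 14 gap junction and caveolar partner genes, 5 fell and the other 9 were not in the authors' deposited table. Tjp1, which encodes a junctional scaffold that binds connexins, fell by 2.52 ± 0.29 in the authors' deposited table. The caveolar genes Cavin2 (-3.30 ± 0.42), Cavin1 (-1.97 ± 0.18), Cav2 (-1.64 ± 0.15) and Cav1 (-1.16 ± 0.22) fell as well in the authors' deposited table. Among 43 calcium-signalling enzymes and sensors, 5 were called lower and 0 higher by the authors' deposited table. They were Plcb4 (-2.66 ± 0.26) and Plcg1 (-1.83 ± 0.16), phospholipases that produce diacylglycerol, the cyclic GMP-dependent kinase gene Prkg1 (-2.53 ± 0.40) and the myosin light chain kinase genes Mylk (-1.16 ± 0.32) and Mylk3 (-3.49 ± 1.16) of the authors' deposited table. The store-operated calcium entry list (13 genes, among them Stim1 and Orai1) had no member in the table. Of 24 pump and exchanger genes Fxyd6 was listed without passing, and of 35 ligand-gated receptor channels Gria3 and Gabra3 were listed without passing, in the authors' deposited table. Endothelial markers, given above, moved in the same direction as these lists, and their part in them was not tested.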

How the data were processed

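The data are 1 table deposited by the authors. Per the labels' protocols, mRNA captured on oligo(dT) beads was fragmented and copied into cDNA from random hexamers. The submitters' processing notes list the aligners HISAT2 and STAR, the build mm10, featureCounts and StringTie, the count models DESeq and edgeR, and STAR-Fusion, with neither role nor version. Per the file headers, each gene has a deposited signal (the mean normalized read count), a log2 fold change of WD over ND with its SE, a test score equal to their ratio, a p-value and an adjusted p-value. All listed p-values are at most 0.04995, and the smallest log2 fold change is 1.00011 in size. The adjusted p was empty for 77 genes, which were not called.

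Members were called at an adjusted p below 0.05. Genes and lists were chosen with earlier results of these data known. Full values were given for up to 3 members per class and direction by p, and other listed members were named with values. The values of 4 members are not reported here, although the counts include them. Planned tests on counts per library could not be made, so calls rest on the authors' p-values. The number of genes given an adjusted p (17531) made 91% of p-value ranks whole within 0.02. On 1 simulated table of 15000 genes the step returned 15000. Gene positions, types and exon lengths came from GENCODE M21 (GRCm38, the sequence of mm10), to which all 2386 IDs matched. Promoter windows of 15 members were taken from RefSeq, with member windows on chromosome 18 left out. Approximate levels per diet assume equal groups of 4 and an unshrunken fold change. Alternatives were an adjusted p below 0.01, a mean count of at least 10, a 95% interval beyond 2-fold, the unadjusted p, coding genes only and pore-forming subunits only. Python 3.11.15, pandas 2.3.3 and matplotlib 3.10.9 were used. The replicates are separate labelled libraries, and the series gives 4 mice per diet.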

Additional observations from a re-analysis of the deposited data

How the results depend on the processing

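The count of 14 lower members was 13 at an adjusted p below 0.01, 10 at a mean count of at least 10, 11 with a 95% interval beyond 2-fold, 17 at the unadjusted p, 14 among coding genes and 13 among pore-forming subunits and connexins. The count of 3 higher members was 1 with the interval beyond 2-fold (Clic5), 1 among pore-forming subunits and connexins (Gjb2) and 5 at the unadjusted p, since these settings admit fewer or more genes by construction. The median log2 fold change of called members was -2.40 and became -2.87 with the interval beyond 2-fold. The related lists had no higher gene, and 2 at the unadjusted p (Aqp11 and Gria3). Of the 17 called members, 16 also passed an adjusted p below 0.01, and Gja5 did not. No paired analysis was possible because the table holds no value per library, and for the same reason no library could be left out and no other normalization or count model could be fitted. Precision follows mean count: the median SE was 0.88 in the bottom 25% of the table by mean count, where 8 members lie, and 0.205 in the top 25%, where 4 lie.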

Other observations

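Several members lay beside other listed genes. Erg, an endothelial transcription factor gene of the ETS family on chromosome 16 (95359169 to 95586593), lies 58.9 kb from Kcnj15 and fell by 2.99 ± 0.25 on the log2 scale at a mean count of 360 in the authors' deposited table, beside -3.49 ± 0.41 for Kcnj15. Ldhb, a lactate dehydrogenase gene 56.9 kb from Kcnj8, fell by 1.36 ± 0.14 in the authors' deposited table, so that Kcnj8 stood between the lower genes Ldhb and Abcc9. Trpv3 and P2rx5 lie 94.7 kb apart on chromosome 11 and had fold changes of opposite sign, -2.59 ± 0.68 and 1.08 ± 0.55, of which P2rx5 did not pass in the authors' deposited table. These neighbours were chosen after their values were seen. Of the 22 members, 10 are overlapped by another annotated gene, 7 of them among the called members.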
